A study of Homo sapiens with 18 samples.

Results

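The regions described here carry peaks of both linker histone isotypes, H1.2 and H1.5, in xxChIP-seq and no peak of either isotype in xChIP-seq of HL-60/S4 cells. They were found base by base. Every base of chromosomes 1 to 22 and X covered by both xxChIP peak lists was kept, all bases covered by either xChIP list were removed, and the remaining segments of at least 1000 bp were taken. This gave 55122 segments, against 263549 separate stretches of the genome covered by at least 1 of the 4 lists. They are called xxChIP-only segments below. The opposite set, both isotypes in xChIP and neither in xxChIP by the same rule, held 50037 segments and is called xChIP-only. The parts of the shared xxChIP peaks that did meet an xChIP peak, again at least 1000 bp long, numbered 34795, and this comparison was added after seeing the data.

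HL-60/S4 is an established human myeloid leukemia cell line, and all samples came from undifferentiated cells that were fixed once with formaldehyde, permeabilized and frozen. In xChIP the chromatin was sonicated and then met the rabbit antibody against H1.2 or H1.5. In xxChIP the antibody bound inside permeabilized cells and was fixed in place by a short additional formaldehyde step before sonication. Per the study's methods, xxChIP also had a longer sonication, a different amount of antibody and a further detergent step. The effects of these differences cannot be told apart in the peak lists. Of the 18 samples, 12 were immunoprecipitated, with 3 replicates for each combination of protocol and antibody, and the 6 Input samples were not used here. The values are the positions of peaks that the authors merged over the replicates, with no score or read number, so the depth behind each segment is unknown and no spread between replicates can be given. The identity of the cells cannot be checked from peak positions. The peak lists covered between 16.3% and 26.4% of the known sequence.

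Linker histone H1 sits where DNA enters and leaves the nucleosome and is needed for compact chromatin. Human somatic cells make several H1 isotypes, which share a globular domain and differ mainly in their tails. An antibody added to whole permeabilized nuclei must reach its epitope within folded chromatin, whereas sonication opens the fiber before the antibody is added. Chromatin rich in A and T, poor in genes and replicated late is known for lying at the nuclear edge, and chromatin rich in G and C and in genes for lying inside.

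To show what kind of DNA the segments hold, 200 bp are given from the middle of the longest segment, of the longest segment lying wholly in an intron, and of the segment with the highest GC content. The 200 bp just upstream of a transcription start site (TSS) are given for the longest segment that holds the TSS of a protein-coding gene. Coordinates are hg19, the sequences are those of its assembly GRCh37, and capitals mark CG dinucleotides (CpG), the sites at which human DNA is methylated.
Longest segment, chr7:95376963-95377162, plus strand: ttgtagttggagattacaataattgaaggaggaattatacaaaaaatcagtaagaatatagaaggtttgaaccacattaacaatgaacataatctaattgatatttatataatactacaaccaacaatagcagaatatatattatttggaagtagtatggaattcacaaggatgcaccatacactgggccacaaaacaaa
Longest segment within an intron, CREB5, chr7:28377427-28377626, plus strand: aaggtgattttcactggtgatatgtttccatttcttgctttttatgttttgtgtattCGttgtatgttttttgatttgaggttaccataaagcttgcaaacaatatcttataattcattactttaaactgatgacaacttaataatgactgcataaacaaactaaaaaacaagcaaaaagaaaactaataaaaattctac
Upstream of the SPAG17 TSS, chr1:118727852-118728051, minus strand: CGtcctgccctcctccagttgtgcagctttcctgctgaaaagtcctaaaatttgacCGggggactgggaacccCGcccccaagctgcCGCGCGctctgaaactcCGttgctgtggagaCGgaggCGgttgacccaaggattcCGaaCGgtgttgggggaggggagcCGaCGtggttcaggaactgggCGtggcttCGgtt
Segment with the highest GC content, in CAMK2B, chr7:44268564-44268763, plus strand: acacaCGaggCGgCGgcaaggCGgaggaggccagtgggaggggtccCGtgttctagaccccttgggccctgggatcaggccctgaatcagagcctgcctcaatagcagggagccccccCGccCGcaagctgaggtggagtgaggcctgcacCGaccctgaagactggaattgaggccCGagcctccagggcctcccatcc

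The middle of the longest segment had a GC content of 29.0% and held 0 CpG. It lay outside every annotated gene. The stretch from the CREB5 intron had a GC content of 26.5% and held 1 CpG. CREB5 encodes a transcription factor of the CRE-binding family. The stretch upstream of SPAG17, a gene for a protein of the ciliary axoneme, stood far from these with 62.0% GC and 15 CpG, and it overlapped an exon of a gene that is not protein-coding. The stretch in CAMK2B, the gene of a kinase subunit of neurons, had 67.5% GC and 9 CpG and overlapped an annotated exon that is neither coding sequence nor UTR. The whole CAMK2B segment had a GC content of 67.7%, and such segments were few. Over whole segments, 884 of the 55122 (1.60%) had a GC content of at least 50%, against 12.4% of the xChIP-only segments. The SPAG17 stretch is 200 bp of a segment of 28356 bp, and single 200-bp stretches were not counted by GC content.

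The segments covered 163.9 Mb, or 5.78% of the known sequence, and the xChIP-only segments 173.6 Mb, or 6.12%. They held 65.6% of the 249.8 Mb that both xxChIP lists covered. Their median length was 2030 bp, with quartiles of 1399 and 3499 bp and a longest segment of 46594 bp. Long segments were few, with 1523 of at least 10 kb, which held 13.0% of the bases, and 133 of at least 20 kb. At the length threshold, 3743 segments exceeded it by less than 100 bp and were kept, and 1866 fell short of it by at most 100 bp and were left out. All pieces under 1000 bp numbered 22693 but held 4.98% of the bases in both xxChIP lists and outside xChIP. These values, and those on ends and flanks that follow, come from the lists the rule used and are descriptions.

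Most segments were not cut out by an xChIP peak. Of the 110244 ends, 45.0% lay where the H1.5 xxChIP peak stopped and the H1.2 peak went on, and 35.5% where the H1.2 peak stopped and the H1.5 peak went on. An xChIP peak formed the end in 19.4% of cases, and 66.8% of the segments had no such end. The median distance from a segment to the nearest xChIP peak was 2134 bp, and 11.3% of the segments were more than 10 kb from one. In the 10 kb on either side of the segments, xChIP H1.2 peaks covered 12.1% of the bases, against 26.4% of the known sequence. The share was 12.5% against 16.3% for xChIP H1.5, 33.8% against 20.2% for xxChIP H1.2 and 26.8% against 17.2% for xxChIP H1.5. The flanks thus held fewer xChIP bases than the genome for both isotypes, though not none, and 40.8% of the segments had an xChIP peak within 1 kb. The flanks also hold other segments, which the rule clears of xChIP peaks. Neighbouring segments were separated by a median gap of 22.3 kb, and 30.6% of the gaps were under 10 kb.

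The segments were found on all 23 chromosomes, at 12.3 to 25.9 per Mb. They covered 5.61% ± 1.17 of a chromosome (mean ± SD over 23 chromosomes), from 3.51% on chromosome 17 to 7.97% on chromosome 4. Chromosomes 7, 1, 6 and 12 followed chromosome 4, at 7.24%, 6.90%, 6.74% and 6.72%. Chromosomes 16, 21 and X stood next to chromosome 17 at the low end, with 3.94%, 3.97% and 4.05%. A chromosome is not a replicate, and these SDs describe how a value varied along 1 set of merged lists. Across the chromosomes, coverage had a weak relation to GC content (Pearson's r = -0.22, Spearman's rho = -0.17) and to the number of protein-coding genes per Mb (r = -0.14, rho = -0.13). Without the 2 chromosomes farthest from the median GC content, r with GC content was -0.38. Coverage by the xxChIP-only and by the xChIP-only segments was related positively (r = 0.60, rho = 0.65), and all points come from the same 4 lists. Chromosome 19, the chromosome with the highest GC content, was covered to 5.96%, within 1 SD of the mean.

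**Figure D1:**
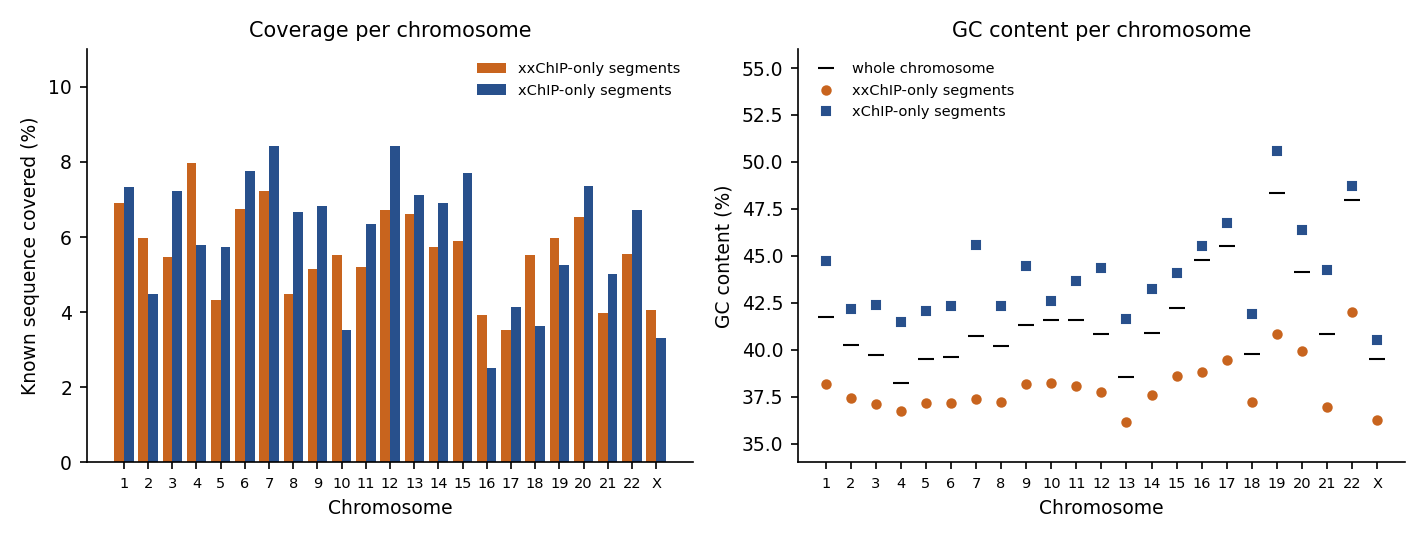
Left, share of the known sequence of each chromosome covered by xxChIP-only (orange) and xChIP-only segments (blue), in percent. Right, GC content in percent of the whole chromosome (black dashes), of its xxChIP-only segments (orange circles) and of its xChIP-only segments (blue squares), with the axis starting at 34%: the orange circle lies under the dash, and the blue square over it, on each of the 23 chromosomes.

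Base composition, which the rule did not use, set the segments apart from the genome and from the xChIP-only segments. Their GC content was 37.7%, against 40.9% in the known sequence, 43.5% in the xChIP-only segments and 39.1% in the shared xxChIP peaks that met an xChIP peak. Per chromosome it differed from that of the chromosome by -3.63 ± 1.44 percentage points (mean ± SD, n = 23 chromosomes), and was lower on 23 of 23. The difference ran from -7.52 to -1.52 points. It was -5.97 ± 1.32 points from the xChIP-only segments and -1.30 ± 0.447 points from the shared peaks with xChIP, and lower on 23 of 23 chromosomes in each case. Single segments showed the same shift, with a median GC content of 37.7% against 42.6% in single xChIP-only segments. Of the xxChIP-only segments 23.7% had a GC content under 35%, against 3.38% of the xChIP-only segments.

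CpG dinucleotides were scarce also when set against the C and G content of the segments. The ratio of observed CpG to that expected from the C and G content was 0.184 in the segments, 0.236 in the known sequence, 0.276 in the xChIP-only segments and 0.213 in the shared peaks with xChIP. The ratio was lower than each of the 3 on 23 of 23 chromosomes, with differences of -0.0540 ± 0.0165, -0.0927 ± 0.0217 and -0.0285 ± 0.00679 in that order. The 3 references are all richer in GC than the segments. No comparison at like GC content was made, so the part of GC content in these differences was not tested. The segments held 6.52 CpG per kb, against 9.87 in the known sequence and 13.1 in the xChIP-only segments. Short patterns searched in the central 200 bp gave the same order for CG, which is its own reverse complement. It occurred at least once in 62.0% of the segments, in 71.4% of all 200-bp tiles of the known sequence and in 78.5% of the xChIP-only segments. The run AAAAAA, searched on both strands, occurred in 40.2%, 36.1% and 41.4%, so that both kinds of segment were above the tiles. For GAGGAAG, a sequence of the kind bound by the myeloid factor PU.1, again on both strands, the shares were 4.65%, 5.18% and 5.28%. A match is a description of the letters and not a binding site.

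Runs of at least 6 A or 6 T took 2.15% of the segment bases, 1.92% of the known sequence, 2.50% of the xChIP-only segments and 2.36% of the shared peaks with xChIP. The segments thus held more of such runs than the chromosome on 23 of 23 chromosomes, yet less than the GC-richer xChIP-only segments on 22 of 23. Repeated sequence was measured from the assembly alone, as the share of positions whose 16 bases occur many times in the assembly on either strand. At 100 copies or more this share was 17.0% in the segments, 15.8% in the known sequence and 44.1% in the xChIP-only segments. Per chromosome it was 1.33 ± 1.55 points above the chromosome, higher on 20 of 23, and the difference from the xChIP-only segments was -26.8 ± 5.01 points, lower on 23 of 23. The comparison with the chromosome turned with the number of copies. At 10 copies or more the share was 44.4% against 36.7%, higher on 23 of 23 chromosomes, and at 1000 copies or more it was 7.79% against 9.81%, lower on 23 of 23. Compared with the known sequence, 16-base words of moderate copy number were therefore more frequent in the segments and those of the highest copy number less frequent. In the shared peaks with xChIP the shares were 59.5% at 10 copies, 32.0% at 100 copies and 18.2% at 1000 copies. The segments were lower than these peaks on 23 of 23 chromosomes at each copy number. Repeat families were not analysed here. The authors kept uniquely mapped reads, and the parts of mappability and of base composition in these shares were not tested.

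The GC content around the segments placed this composition in a wider region. It was 37.3% at the segment centres and 38.7% and 38.8% at 10 kb on either side, under the 40.9% of the known sequence. Between them it had narrow shoulders of up to 38.9% about 600 bp from the centre. The centres of xChIP-only segments stood at 43.3%, and their surroundings at 42.7%, on the other side of the genome average.

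The ends of the segments carried a narrow rise in GC content. At ends where the H1.5 xxChIP peak stopped, GC content was 36.8% at 400 to 500 bp inside the segment, 42.8% in the last 100 bp inside, and 36.5% at 200 to 300 bp outside. At ends where the H1.2 xxChIP peak stopped, the same windows gave 37.3%, 43.0% and 37.2%. The 200 bp that span the end exceeded the window 400 to 500 bp inside by 4.18 ± 0.352 points for H1.5 and 4.14 ± 0.542 points for H1.2 (mean ± SD over chromosomes), on 23 of 23 chromosomes each. At ends formed by an xChIP peak the rise lay on the outer side, inside the xChIP peak. There GC content was 36.5% at 100 to 200 bp inside the segment, 39.9% at 100 to 200 bp outside and 37.1% at 400 to 500 bp outside. So at each kind of end the rise stood mainly within the last 300 bp of the peak whose limit formed that end. The ends of xChIP-only segments had it too, at 44.9% in the last 100 bp against 43.1% at 400 to 500 bp inside, a difference over the spanning 200 bp of 1.07 ± 0.393 points. The part of the peak caller in this rise was not tested.

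Short segments consist of ends to a larger extent, and their mean GC content was higher. Segments of 1000 to under 2000 bp averaged 39.4% ± 4.82 (SD over 27096 segments), those from 2000 to under 5000 bp 37.6% ± 4.23 (n = 20443), those from 5000 to under 10000 bp 36.8% ± 3.32 (n = 6060) and those of 20 kb or more 36.8% ± 2.34 (n = 133). At the very centre, away from the ends, the values lay closer, at 37.6% for segments under 2000 bp, 37.1% for the next class up to 5000 bp and 36.5% for 5000 bp or more. The pair of shoulders about 600 bp from the centre in the mean profile came from the shortest class, where GC content reached 41.0% at that distance.

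**Figure D2:**
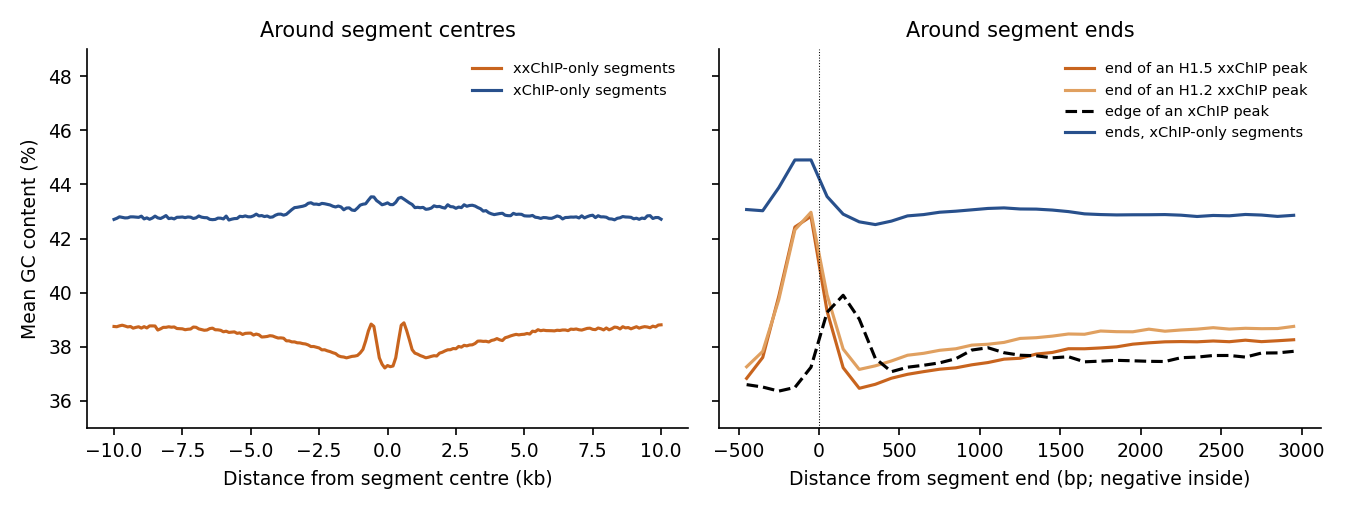
Mean GC content in 100-bp windows, in percent, with the axis starting at 35%. Left, by distance from the centre of xxChIP-only (orange) and xChIP-only segments (blue), where the orange line stays under the blue one throughout; right, by distance from segment ends, negative inside the segment, where the rise to 42.8% or 43.0% lies inside the segment at ends of xxChIP peaks (orange lines) and the rise to 39.9% lies outside at edges of xChIP peaks (black dashes).

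Regional composition followed the same order. When the known sequence was cut into windows of 100 kb ranked by GC content and divided into 10 equal classes, the segments covered 11.6% of the class with the lowest GC content and less with each step, down to 1.17% of the class with the highest. On single chromosomes the lowest class was covered to 11.6% ± 2.97 (SD, n = 20 chromosomes with such windows) and the highest to 1.17% ± 0.546 (n = 23), so these classes differed by more than the spread between chromosomes. Neighbouring classes in the middle of the order differed by less than that spread. The xChIP-only segments ran the other way, from 2.61% to 10.7%.

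Coverage fell as the number of genes rose, and among windows of like GC content it was lower where a TSS was present. Windows of 100 kb with no TSS of a protein-coding gene were covered to 7.33%, those with 1 TSS to 3.94%, those with 2 to 4 to 2.47% and those with 5 or more to 1.36%. Within each of the 10 GC classes, windows without a TSS had more coverage than windows with at least 1. In the lowest class the values were 11.7% and 9.64%, and in the highest 2.38% and 0.755%. The xChIP-only segments ran the same way in the 4 lowest classes, with 2.64% and 2.19% in the lowest, and the opposite way in the 6 others, with 5.49% and 12.5% in the highest.

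**Figure D3:**
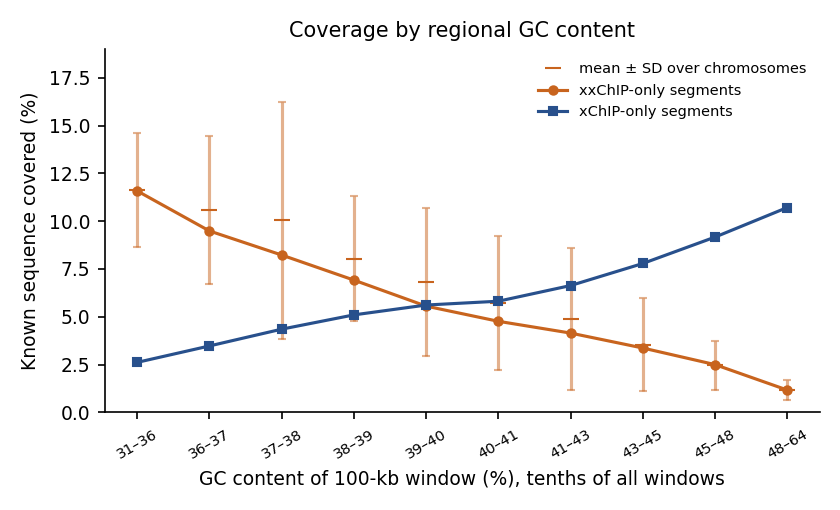
Share of known sequence covered, in percent, in 10 equal classes of 100-kb windows ranked by GC content, for xxChIP-only (orange circles) and xChIP-only segments (blue squares); dashes with bars give the mean ± SD over chromosomes for the xxChIP-only segments. The orange line falls from 11.6% to 1.17% and the blue line rises from 2.61% to 10.7%.

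In windows of 1 Mb the median coverage was 4.69%, and 43 of 2846 windows held no segment. Coverage was above 20% in 21 windows. The window with the most was chromosome 19 from 24000001 to 25000000, at 28.9% with 29 segments, which holds the TSS of the zinc finger genes ZNF254 and ZNF726. Next came chromosome 8 from 43000001 to 44000000, at 28.5%, with the TSS of POTEA, a primate-specific ankyrin-repeat gene. The other 3 of the 5 windows with the highest coverage held no TSS of a protein-coding gene. They were chromosome 7 from 125000001 to 126000000 at 26.3%, chromosome 9 from 68000001 to 69000000 at 25.3%, and chromosome 1 from 188000001 to 189000000 at 25.1%. The xChIP-only segments covered 1.04%, 3.14% and 1.43% of these 3 windows, 2.23% of the window on chromosome 19 and 9.29% of that on chromosome 8, the last above their genome share of 6.12%. Of the 284 windows with the most xxChIP-only coverage, 1 was also among the 284 with the most xChIP-only coverage. Of all 2846 windows, 284 were in the latter set. The rule lets no base lie in both kinds of segment, so this count and the relation that follows are descriptions. Over all windows the relation of the coverages was negative (r = -0.44, rho = -0.52), with both taken from the same lists. The windows on chromosomes 8 and 19 lie beside a centromere. Coverage is the share of the known sequence of a window, which can be less than 1 Mb. In the 1 Mb next to the largest assembly gaps the segments covered 9.16%, falling to 6.42% from 1 to 2 Mb. In the outermost 1 Mb of the chromosome arms they covered 3.31%, where the xChIP-only segments covered 8.31%.

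The longest segment ran over 46.6 kb on chromosome 7 from 95353766 to 95400359, with no annotated gene in it and the TSS of DYNC1I1, a dynein motor subunit, 24.8 kb away. Next were 46.4 kb on chromosome 6 from 119874412 to 119920849, 227 kb from the TSS of MAN1A1, and 44.8 kb on chromosome 8 from 130008463 to 130053274, within the long non-coding RNA gene CCDC26. Of the 10 longest, 9 lay outside protein-coding genes, and the exception, 36.5 kb on chromosome 3, overlapped ZNF717 and an exon of it. The other 6, from 35.8 to 43.6 kb, included 3 more on chromosome 8, for 2 of which the nearest protein-coding TSS was that of POTEA, and 1 each on chromosomes 12, 16 and 17. Among the 1000 longest, 745 lay outside protein-coding genes, where 68.0% of the bases of all segments were intergenic.

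The bases of the segments were 68.0% intergenic, 31.1% intronic and 0.861% exonic with respect to protein-coding genes. The known sequence had 54.2%, 42.0% and 3.82%, and the xChIP-only segments 54.4%, 43.1% and 2.49%. The exon share differed from that of the chromosome by -3.25 ± 1.21 points, lower on 23 of 23 chromosomes, and from the xChIP-only segments by -1.64 ± 0.743 points, lower on 23 of 23. The intergenic share was above the chromosome by 15.2 ± 4.03 points on 23 of 23. Coding sequence made up 0.251% of the segments, against 1.26% of the known sequence. Against the shared xxChIP peaks with xChIP the shares did not separate, with 0.912% exonic bases there and a difference of 0.0510 ± 0.660 points, lower on 13 of 23 chromosomes. The segment centres lay at a median of 162.5 kb from the nearest TSS of a protein-coding gene. The median was 85.0 kb for 1-kb bins of the known sequence and 44.4 kb for the xChIP-only segments, and the segments were farther on 23 of 23 chromosomes in both comparisons. The shared xxChIP peaks with xChIP lay between, at 113.3 kb, so they too were farther than the bins. Of the segments, 62.0% were more than 100 kb from such a TSS. The distance grew with segment length, from a median of 140.3 kb for segments under 2000 bp to 294 kb for those of 20 kb or more.

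Around the TSS of protein-coding genes the coverage dipped. It was 0.776% in the first kb downstream, 1.04% in the first kb upstream and 2.87% at 49 to 50 kb upstream, and over chromosomes the first kb downstream had 0.683% ± 0.391 against 2.89% ± 1.05 at 49 to 50 kb upstream. The dip reached farther into the gene than away from it, since coverage was 2.13% at 5 to 6 kb downstream and 2.89% at 5 to 6 kb upstream. At gene ends the coverage fell to 1.28% in the last kb of the gene and returned to 3.06% at 4 to 5 kb beyond it. The xChIP-only segments had a higher level with a dip at the same places, from 10.6% at 49 to 50 kb upstream to 6.26% in the first kb downstream.

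**Figure D4:**
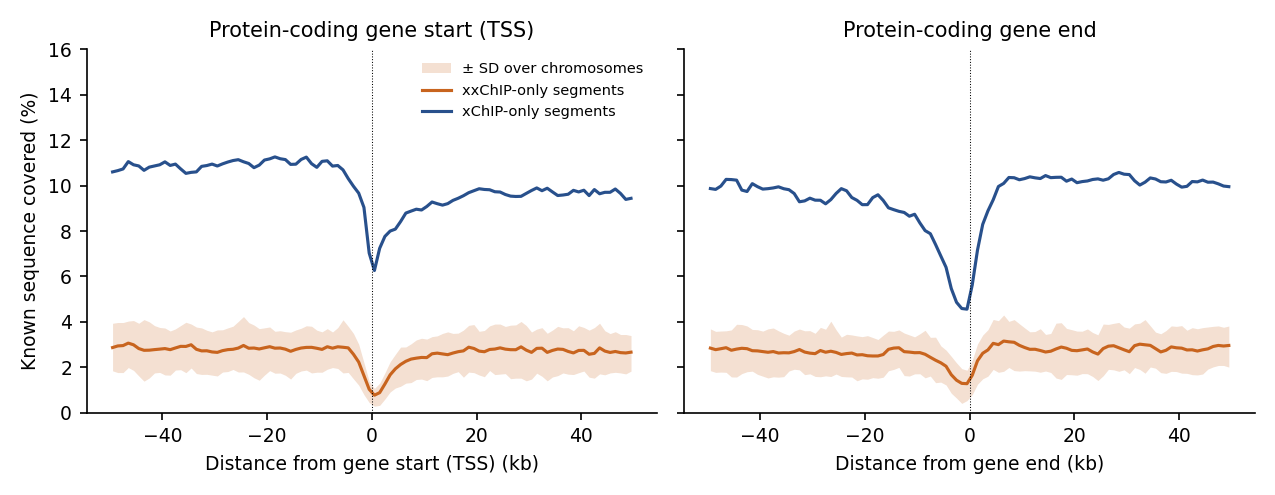
Share of known sequence covered, in percent, in bins of 1 kb around the start (left) and the end (right) of protein-coding genes, for xxChIP-only (orange) and xChIP-only segments (blue); the band is the mean ± SD over chromosomes for the xxChIP-only segments. Both lines dip at the gene start, the orange one to 0.776%.

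A promoter was taken as the 1000 bp on either side of a TSS. At protein-coding genes 356 of 20048 promoters shared at least 1 bp with a segment, or 1.78% (95% Wilson interval 1.60% to 1.97%, counting error only). The xChIP-only segments met 2369, or 11.8% (11.4% to 12.3%). Promoters took 0.218% of the segment bases, against 1.30% of the known sequence and 0.269% of the shared xxChIP peaks with xChIP. Against these shared peaks the segments were lower on 10 of 23 chromosomes and higher on 13. A low promoter share was thus not particular to the segments. The promoters met by xxChIP-only segments were not typical promoters in composition. Their median GC content was 44.2%, against 55.0% for all promoters and 55.5% for those met by xChIP-only segments, and their median observed/expected CpG ratio was 0.239 against 0.612 and 0.635. A ratio of at least 0.6, as in CpG islands, was found in 41 of the 356 (11.5%) and in 51.8% of all promoters.

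A TSS itself lay in a segment for 175 of 20098 protein-coding genes (0.871%), against 6.05% for the xChIP-only segments. In the other gene classes the share was higher, and it stayed under that of the xChIP-only segments. It was 2.60% for genes of long non-coding RNAs against 4.51% in xChIP-only segments, 4.04% for processed pseudogenes against 6.24%, and 3.96% for miRNA genes against 4.79%. For other small RNAs the gap was wider, with 2.89% against 7.01% for snoRNA genes, 3.32% against 10.1% for snRNA genes and 3.95% against 10.8% for the class misc_RNA. The longest segment that held a protein-coding TSS was that of SPAG17, whose GC-rich upstream sequence is printed above, with 28356 bp on chromosome 1 from 118708860 to 118737215. It was followed by that of PDE7B, a phosphodiesterase that breaks down cAMP, with 18586 bp. The next belonged to KRTAP19-6, a hair keratin-associated protein, with 15379 bp, OR6C65, an olfactory receptor, with 15000 bp, and POTEH with 14909 bp. The remaining 5 of the 10 were ACSM2A, a mitochondrial acyl-CoA synthetase, EPYC, a cartilage proteoglycan, LILRB1, an inhibitory receptor of leukocytes, and GLYATL1 and GLYATL2, glycine acyltransferase-like genes whose TSS lay in the same segment of 13596 bp.

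At least 1000 bp in segments were found in 5405 of 20098 protein-coding genes, or 26.9%, and at least 1000 bp in xChIP-only segments in 9392, or 46.7%. This call depends on gene length. Of the genes under 10 kb 1.87% were called (98 of 5235), against 10.3% by xChIP-only segments. Of those from 100 to 500 kb 75.9% were called, and of those of 500 kb or more 321 of 323. As a share of bases, which does not carry the length in this way, coverage rose from 0.899% in genes under 10 kb to 6.86% in genes of 500 kb or more. For the xChIP-only segments the corresponding shares were 5.66% and 3.35%, so that the order of the segment kinds crossed between short and long genes.

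The 10 genes with the most bases in segments were all over 1 Mb long. MACROD2 (ENSG00000172264, chromosome 20 from 13976015 to 16033842, plus strand), an ADP-ribose hydrolase, had 253 kb in 69 segments, which is 12.3% of the gene, against 1.19% in xChIP-only segments. CNTNAP2, a neuronal adhesion protein of the axon, had 243 kb (10.5% against 2.55%). PTPRD, a receptor tyrosine phosphatase of synapses, had 239 kb, or 10.4% of the gene. DLG2, a postsynaptic scaffold, had 230 kb (10.6% against 3.37%), and PCDH15, a protocadherin of hair cell tip links, 224 kb (12.3% against 1.53%). The other 5 were CTNNA3, AGBL4, GRIK2, DAB1 and ANKS1B, with 199 to 223 kb each and shares of 12.0% to 18.7%.

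By share of the gene, among genes of at least 10 kb, the zinc finger genes ZNF470 (73.3%) and ZNF729 (72.8%) on chromosome 19 came first. ZNF470 (ENSG00000197016) runs from 57078837 to 57100279 on the plus strand, and its 15.7 kb lay in 3 segments. PSG2, a pregnancy-specific glycoprotein, had 71.9%, ACSM2A 68.2%, NXPE2 65.8% and IL26, a cytokine of T cells, 65.1%. ZNF441 followed at 65.0%, then TLR2 with 64.4%, then POTEH with 62.7% and SPAM1, a sperm hyaluronidase, with 58.6%. TLR2 (ENSG00000137462, chromosome 4 from 154605222 to 154627412, plus strand) encodes a receptor of myeloid cells for bacterial lipopeptides, and its 14.3 kb came from a single segment. None of these 10 had a base in an xChIP-only segment. Several, such as the PSG, ACSM2 and POTE genes, belong to families with closely similar copies. Because reads without a unique position were discarded, shares in such families are uncertain, and the part of mappability in them was not tested.

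The gene lists were chosen by family with earlier results of these data known, and no test was made over them, so their values stand beside those of all protein-coding genes (26.9% called, 3.97% of bases in xxChIP-only and 6.17% in xChIP-only segments). Large genes of neurons had the highest shares among the lists of long genes. All 20 synaptic and neuronal adhesion genes were called, as almost all genes of 500 kb or more were. Of the bases of these 20 genes 7.88% lay in segments, against 2.08% in xChIP-only segments. Their median span was 1212 kb, and all genes of 500 kb or more had 6.86% of bases against 3.35%. PCDH15, CNTN5 and LSAMP led the list with 12.3%, 10.9% and 10.8%. Of the GABA and glutamate receptor genes, which encode the main inhibitory and excitatory receptors of the brain, 36 of 44 were called, with 9.48% of bases against 2.45%. Of the receptor subunit genes, GRIK2 had 18.7% of its bases in segments and GABRA5 18.5%. Of the classical cadherins, cell adhesion proteins, 18 of 23 were called with 5.99% of bases against 1.75%, led by CDH26 at 23.6%, CDH20 at 11.2% and CDH18 at 8.60%. The receptors and cadherins have median spans of 202 and 140.1 kb, and of all genes from 100 to 500 kb 75.9% were called with 4.09% of bases, so their counts called (81.8% and 78.3%) were near those of genes of like length. The xChIP-only segments called 26 of the receptors and 15 of the cadherins. Potassium channels had 37 of 94 called (39.4%) and 6.07% of bases against 3.22%, with KCNJ8 (24.6%), KCNT2 (23.3%) and KCNH5 (20.5%) at the head. The xChIP-only segments called 50 of the channel genes. The median channel gene had 0.0% of its span in segments, against 0.886% in xChIP-only segments. The median span was 46.2 kb. Of all genes from 10 to 50 kb 14.7% were called with 1.78% of bases, and from 50 to 100 kb 40.6% with 2.45%.

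Receptor families of small genes in clusters were a different case. Of 414 olfactory receptor genes, which detect odorants in the nose, 51 were called, or 12.3%, where 1.87% of all genes under 10 kb were called. Their median span was 1.97 kb, 6.81% of their bases lay in segments against 3.59% in xChIP-only segments, and 21 had their TSS in a segment. OR10H2, OR13C5 and OR2B6 lay in segments from end to end. Of 24 bitter taste receptor genes 3 were called and 12.8% of bases were covered, a share that rests largely on the long span annotated for TAS2R14 (15.2% of 234166 bp). TAS2R41 was covered to 100% and TAS2R20 to 92.7%. Beta-defensins, antimicrobial peptides, had 6 of 40 called, with 5.19% of bases against 4.94%, and DEFB127 was covered whole, DEFB108B to 47.9% and DEFB131B to 39.2%. Keratins and keratin-associated proteins had 10 of 149 called and 3.26% of bases against 4.34%, with KRTAP19-6, KRTAP4-5 and KRTAP4-8 covered whole.

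The zinc finger genes named ZNF, which encode mostly KRAB-type repressors, had 191 of 508 called and 6.71% of bases against 4.37%. These genes were split by chromosome, a division made after seeing the data. The 246 on chromosome 19 had 119 called (48.4%) and 10.1% of bases in xxChIP-only against 1.24% in xChIP-only segments. All 1480 protein-coding genes of chromosome 19 had 17.2% called and 3.90% of bases against 5.26%. The 262 ZNF genes elsewhere had 72 called (27.5%) and 4.77% of bases against 6.16%. All genes on those chromosomes had near values, with 27.7% called and 3.97% of bases against 6.19%. The clustered protocadherins had 24 of 53 called (45.3%) and 4.95% of bases against 9.05%. Their median span was 110.2 kb, and of all genes from 100 to 500 kb 75.9% were called with 4.09% of bases. The annotated spans of the protocadherins are nested and end in the same exons. A single segment thus counts for many of them, as in PCDHAC2 (12.2%), PCDHA13 (11.6%) and PCDHA11 (11.5%).

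The lists of genes active in all cells, and of genes of the myeloid lineage, had lower shares of bases in segments than all protein-coding genes. Gene length is not taken into account in this comparison. Of 76 cytosolic ribosomal protein genes 2 were called (2.63%), RPL37A and RPS9, with 0.448% of bases against 12.7% in xChIP-only segments. Their median span was 5.33 kb, and of all genes under 10 kb 1.87% were called with 0.899% of bases against 5.66%. The count called was thus not below that of short genes, whereas the share of bases was lower. Of 39 proteasome subunit genes 6 were called (15.4%), with 1.43% of bases against 8.92%. Their median span was 16.02 kb, and of all genes from 10 to 50 kb 14.7% were called with 1.78% of bases, so these genes were near others of their length. Among them the largest share was 8.65% in PSMA2, followed by PSMD6 (8.08%) and PSMD1 (5.87%). Of 8 azurophil granule protein genes, the granule enzymes that promyelocytes make, none was touched by a segment, and 0.724% of their bases lay in xChIP-only segments. Of 12 myeloid transcription factor genes, with 2.31% of their bases in segments against 3.71%, 1 was called, RUNX1, with 2.65% of its 1216868 bp against 2.56% in xChIP-only segments. The median span was 7.05 kb for the granule proteins, where 1.87% of all genes under 10 kb were called with 0.899% of bases. For the transcription factors it was 13.8 kb, where 14.7% of all genes from 10 to 50 kb were called with 1.78% of bases. The share of bases of the transcription factors was thus above that of genes near their median span, but all of it lay in RUNX1. The HOX genes, developmental transcription factors, had 1 of 39 called (2.56%), HOXB7 with 3.90%. Their share of bases was low in both kinds of segment (0.257% and 0.326%). Their median span was 4.22 kb, where 1.87% of all genes under 10 kb were called with 0.899% of bases. Type I interferon genes (17) and core histone genes of the replication-dependent clusters (58) had none called, but their median spans of 0.988 and 0.499 kb are under the 1000 bp needed. A single histone gene, H4C8, had 904 bp in a segment.

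**Figure D5:**
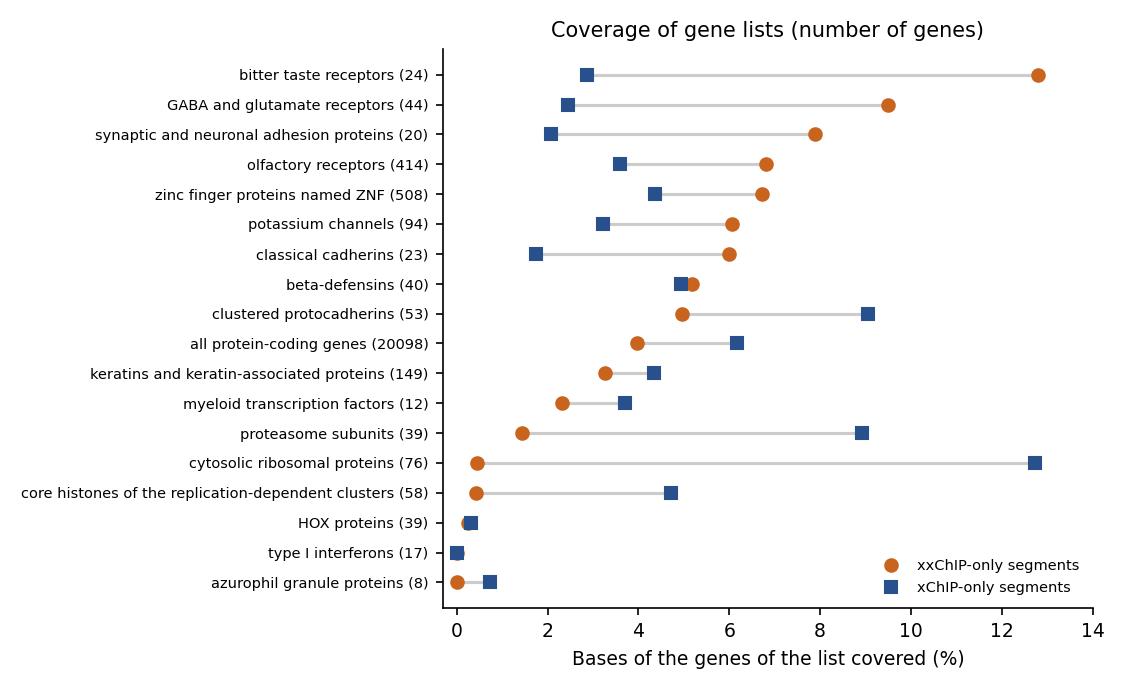
Share of the bases of all genes of a list covered by xxChIP-only (orange circles) and xChIP-only segments (blue squares), in percent, for the gene lists and for all protein-coding genes, with the number of genes in parentheses. GABA and glutamate receptors (9.48% against 2.45%) and cytosolic ribosomal proteins (0.448% against 12.7%) stand at opposite sides of all genes (3.97% against 6.17%). The lists differ in gene length, with median spans of 202 kb for the receptors and 5.33 kb for the ribosomal proteins.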

How the data were processed

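H1.2 and H1.5 were mapped by ChIP-seq under 2 protocols. Per the study's methods, the authors mapped read pairs with Bowtie2 on hg19, discarded reads without a unique position, found peaks with MUSIC in its default setting and joined those of 3 replicates into 1 list. The deposited peak positions, 1 list per protocol and antibody, hold chromosome, start and end, with no score, signal or read number. Offset peaks become longer when merged, and the number of replicates behind a peak is not recorded. Depth is unknown, so the only intervals given are 95% Wilson intervals of shares, which cover counting error alone.

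The samples were grouped by protocol and antibody from their titles. The members and the gene lists were chosen with earlier results of these data known. Lists were intersected and subtracted base by base on GRCh37, with 2836 Mb of known sequence, and gene models were those of GENCODE 44 in its GRCh37 version (20098 protein-coding). Exons, introns and promoters are those of protein-coding genes unless stated. No test was made over segments or genes. Differences are means ± SD over 23 chromosomes, with the count of chromosomes in each direction. A gene was called from 1000 bp in segments. Copy number was counted for all 16-base words on both strands. Windows of 1 Mb or 100 kb with under 50% known sequence were left out.

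Named genes were the 10 with the most bases in segments, the 10 of at least 10 kb with the largest share covered, the 10 whose TSS lay in the longest segments and up to 3 from each of 17 gene lists by share, and the 10 longest segments and 5 windows of 1 Mb with the highest coverage were named with them. The printed stretch at the SPAG17 TSS was moved to its upstream side so that no UTR is shown, and chromosome 8 was left out of printed sequences. A gene and a sequence that this choice names are not reported here. The rule was tested on simulated lists. Counting was done with numpy 2.4.6 and numba 0.67.0 in Python 3.11.15, intervals with scipy 1.17.1, and plots with matplotlib 3.10.9.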

Additional observations from a re-analysis of the deposited data

How the results depend on the processing

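Of 32 alternatives, 17 stayed within the spread over chromosomes, the counting interval or 1.5 times the count, 14 moved further, and 1 reversed. The reversal was the share of positions with repeated 16-base words, segments minus chromosome, which was 8.19 points at 10 copies, 1.33 at 100 copies and -1.95 at 1000 copies. A minimum length of 2000 bp left 28026 segments, and 5000 bp left 7583 with 62.2 Mb, which follows from the longer minimum, and at 5000 bp the observed/expected CpG ratio averaged over chromosomes was 0.173 in place of 0.188. The share of promoters met by segments was 1.202% within 500 bp of the TSS, 4.22% within 2500 bp, 1.46% with xChIP peaks widened by 1000 bp, and 4.74% for all annotated genes. With all annotated genes, the averages over chromosomes became 2.22% for exonic bases, 50.3% for intronic bases and 28.7 kb for the median distance to a TSS, in place of 0.961%, 30.4% and 169.6 kb. Asking for 5000 bp left 2344 genes called. In windows of 1 Mb the class with the highest GC content was covered to 1.75%. The GC differences from the chromosome and from the xChIP-only segments stayed below 0 under each alternative run, from -4.65 to -3.17 and from -6.87 to -6.41 points. Leaving out peaks under 1000 bp changed no segment, which for the xxChIP lists follows from the rule and is no check of stability, and its 2 values are among the 17.

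No paired analysis was possible because the deposited lists merge the replicates. Leaving out a replicate could not be run for the same reason, so whether a segment is present in every replicate is not known, and unknown depth leaves the absence of an xChIP peak as a statement about the peak call and not about the amount of H1.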
